A study of Homo sapiens with 34 samples.

Results

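Human embryonic stem cells carrying a short hairpin RNA (shRNA) against ZEB2 were compared with cells carrying an shRNA against ZNF503 after 6 days of cardiac differentiation. The comparison rested on 4 RNA-seq libraries, 2 per shRNA, of the 34 samples in the series, chosen by their labelled target and day. Every group was made from H1, a long-established line of human embryonic stem cells. The cells had taken up a lentiviral vector, were grown under puromycin and were differentiated with the GSK3 inhibitor CHIR99021 followed by the WNT secretion inhibitor IWP2. WT cells carried the vector with an shRNA to GFP or with no insert. NKX2-5 shRNA cells were differentiated alongside. For each gene several hairpins had been tried and the line with the strongest knockdown was kept, so each knockdown here is 1 line, and an effect of the target cannot be told apart from an effect of that hairpin or line. The study calls the replicates biological, and the labels do not say whether the 2 of a group came from separate differentiations, so the tests measure the spread between these libraries.

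Depth differed between the 4 libraries. The ZEB2 shRNA libraries held 61515661 and 13807853 counts, and the ZNF503 shRNA libraries held 19426731 and 25039495. WT and NKX2-5 shRNA libraries of the same day entered the fit and held 24176159 to 50881135 counts. The first principal component of the 8 libraries carried 75.8% of the variance. On it ZEB2 shRNA and WT libraries lay on the positive side, at 47.0 to 73.3, and ZNF503 shRNA and NKX2-5 shRNA libraries on the negative side, at -61.5 to -51.8.

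ZEB2 is a zinc finger and homeodomain repressor that binds paired E-boxes, is known for silencing epithelial genes such as CDH1 during epithelial to mesenchymal transition, and has a close relative in ZEB1. ZNF503 is a zinc finger protein of the NET family, which lacks a clear DNA-binding role of its own and acts with corepressors of the Groucho (TLE) family. In differentiation of this kind, stem cells pass through a mesendoderm that expresses NODAL, EOMES and MESP1. Cardiac progenitors marked by ISL1, HAND2 and NKX2-5 follow, and then cells that assemble sarcomeres. Endoderm can arise beside them from the same precursors, and its visceral and hepatic forms secrete AFP, TTR and apolipoproteins.

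Each target was measured first. Levels are CPM, a library's counts scaled to a common total, on TMM-scaled library sizes, differences are log2 fold changes of ZEB2 shRNA over ZNF503 shRNA cells with their standard errors, and a gene is said to pass at an adjusted p of at most 5% (edgeR, Benjamini-Hochberg over all genes tested). ZNF503 lies on the minus strand of chromosome 10, at 77157588 to 77161522 of GRCh37 in the GENCODE annotation. It stood at 0.598 and 0.635 CPM in the ZNF503 shRNA libraries, 12.9 and 11.8 CPM in the ZEB2 shRNA libraries and 8.62 and 9.13 CPM in WT. The level in ZNF503 shRNA cells was thus 6.95% ± 0.295 of the WT mean (SD, n = 2). The log2 difference between the lines was 4.31 ± 0.29 (edgeR adjusted p = 3.17e-07). ZEB2 lies on the minus strand of chromosome 2, at 145121931 to 145278624. It stood at 53.4 and 56.9 CPM in the ZEB2 shRNA libraries, against 95.7 and 92.0 CPM in WT, which leaves 58.7% ± 2.59 of the WT mean (SD, n = 2). By real-time PCR the study reports a larger loss of ZEB2 than these counts show. The cause of that gap between PCR and sequencing was not tested.

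The ZEB2 transcript was lower in the cells with the ZNF503 hairpin than in the cells with the ZEB2 hairpin. It stood at 10.7 and 12.5 CPM in the ZNF503 shRNA libraries, 12.4% ± 1.32 of the WT mean, and the groups did not overlap (log2 difference 2.24 ± 0.13, edgeR adjusted p = 1.13e-07). The NKX2-5 shRNA libraries held 20.2 and 20.0 CPM of ZEB2 and 0.578 and 0.879 CPM of ZNF503. A low ZNF503 level at day 6 was thus not particular to cells with the ZNF503 hairpin. How much of it the hairpin accounts for was not tested. The relative ZEB1 followed the same order, with 33.7 and 28.8 CPM in ZEB2 shRNA, 4.24 and 6.27 CPM in ZNF503 shRNA and 74.0 and 70.7 CPM in WT cells (2.57 ± 0.20). NKX2-5, a homeobox factor of the early heart, stood at 36.4 and 34.7 CPM in ZEB2 shRNA and 2.84 and 2.03 CPM in ZNF503 shRNA libraries (3.88 ± 0.27), with 83.2 and 49.3 CPM in WT. At day 2 neither target differed detectably between the lines. ZEB2 then stood at 11.6 and 13.1 CPM in ZEB2 shRNA and 10.5 and 14.4 CPM in ZNF503 shRNA libraries, with 19.3 and 19 CPM in WT, and ZNF503 stood at 1.43 and 1.62 CPM and 1.01 and 1.85 CPM.

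**Figure D1:**
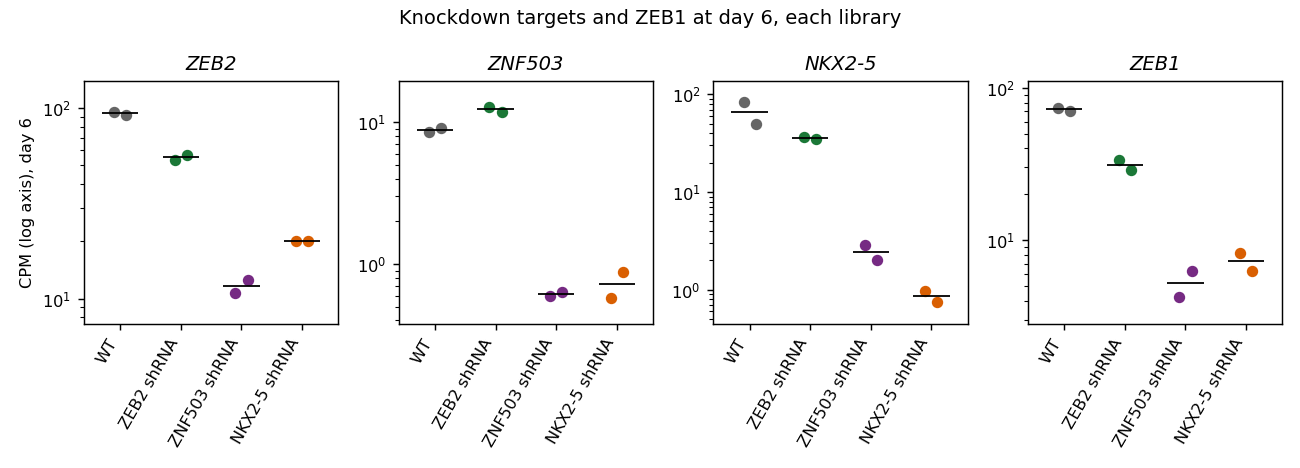
CPM of ZEB2, ZNF503, NKX2-5 and ZEB1 at day 6 on a log axis, with 1 point per library and a bar at the mean of the 2 libraries of each group. ZNF503 shRNA libraries sit below ZEB2 shRNA libraries in each panel, the ZEB2 panel included.

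Among partners and relatives of the targets, TLE4, a Groucho corepressor, was higher in ZEB2 shRNA cells (1.02 ± 0.14) and TLE1, another of that family, was lower (-1.50 ± 0.17). TLE2, TLE3 and ZNF703, the relative of ZNF503, did not pass, at -0.43, -0.25 and 0.91. The corepressors CTBP1 and CTBP2, partners of ZEB proteins, were both lower in ZEB2 shRNA cells (-0.31 ± 0.12 and -0.31 ± 0.11). Of the 11 genes in that list, 5 passed as higher and 3 as lower.

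At day 6 the lines differed by 8-fold or more at a 1% false discovery rate in 573 of 16442 genes tested, or 3.48%. Of these, 452 (2.75% of genes tested) were higher in ZEB2 shRNA cells and 121 (0.736%) were lower. The 2 groups of libraries did not overlap in any of the 573, which follows largely from the call itself and is no further support. At a 5% false discovery rate with no minimum fold, 49.2% of genes tested passed. Those higher in ZEB2 shRNA cells were 25.6% of genes tested and those lower were 23.7%. These shares are the background for the gene lists given next. The filter on low counts keeps a gene that is high in a single group, so counts over tested members are descriptions of the lists.

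**Figure D2:**
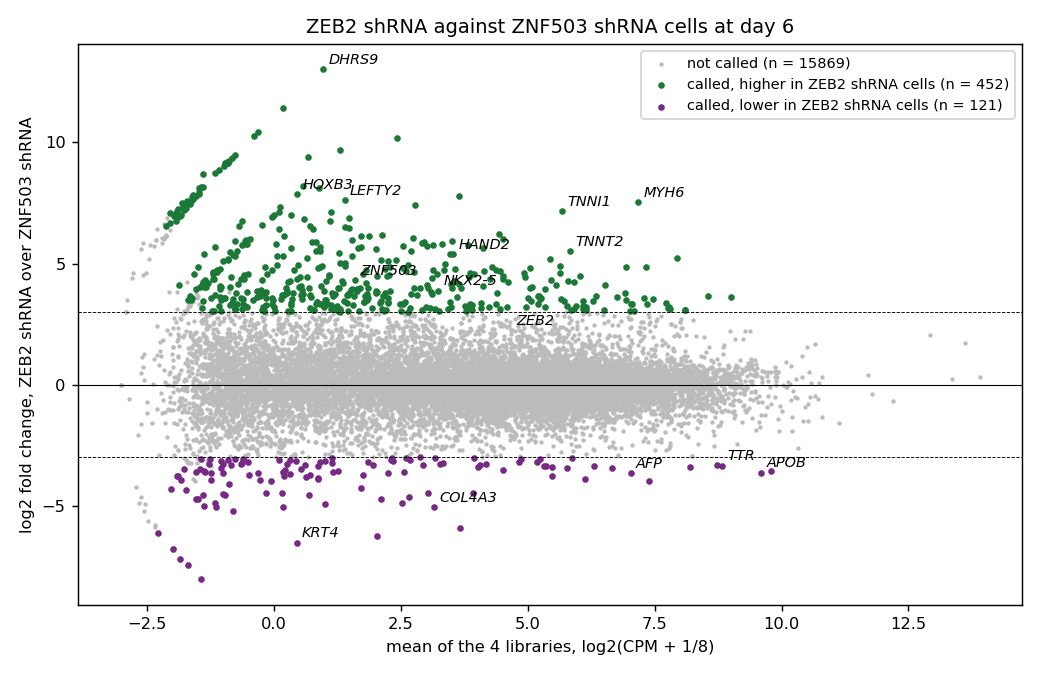
Each gene tested at day 6, with the mean log2(CPM + 1/8) of the 4 libraries on the x axis and the log2 fold change of ZEB2 shRNA over ZNF503 shRNA on the y axis. Green marks the 452 genes called higher and purple the 121 called lower at 8-fold and 1% FDR, the dashed lines lie at 8-fold, and the diagonal rows at the left are genes with no or few counts in 1 group, whose fitted fold changes rest on the prior count.

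Set against WT, the lines stood apart to unequal degrees. These comparisons share the WT libraries and the shRNA libraries with the direct contrast, so they are given side by side. ZEB2 shRNA cells differed from WT by 8-fold at 1% FDR in 76 genes (0.462%), 39 higher (0.237%) and 37 lower (0.225%). ZNF503 shRNA cells differed in 643 genes (3.91%), 165 higher (1.00%) and 478 lower (2.91%). At 5% FDR 11.0% of genes passed for ZEB2 shRNA against WT (5.67% higher, 5.33% lower) and 55.7% for ZNF503 shRNA (27.2% higher, 28.5% lower). Over the 452 genes called higher in ZEB2 shRNA than in ZNF503 shRNA cells, the median log2 fold change against WT was 0.14 for ZEB2 shRNA and -4.25 for ZNF503 shRNA. Over the 121 called lower, these medians were -0.44 and 3.19.

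Cardiac transcription factors were mostly higher in ZEB2 shRNA cells, with exceptions that included GATA factors and TBX3. Of 22 tested, 16 passed as higher, 10 of them by 8-fold at 1% FDR, and 4 passed as lower. The median log2 fold change was 2.54, against 0.03 over all genes tested. In bulk RNA, fewer cells of a type and less RNA per cell cannot be told apart, here and in the lists that follow. SMYD1, a muscle-restricted methyltransferase, stood at 59.5 and 53.04 CPM in ZEB2 shRNA and 1.40 and 0.794 CPM in ZNF503 shRNA libraries (5.72 ± 0.28, edgeR adjusted p = 2.29e-08). HAND2, a helix-loop-helix factor needed for heart growth, stood at 75.7 and 71.6 CPM and 1.296 and 2.18 CPM (5.37 ± 0.23). MYOCD, the coactivator of SRF, stood at 289 and 257 CPM and 10.8 and 7.54 CPM (4.91 ± 0.20). In each of these the lowest ZEB2 shRNA library was far above the highest ZNF503 shRNA library.

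TBX5, which marks the first heart field, stood at 9.61 and 8.89 CPM in ZEB2 shRNA and 0.997 and 0.238 CPM in ZNF503 shRNA libraries (3.98 ± 0.41). ISL1, the marker of the second heart field, stood at 136 and 126 CPM and 10.4 and 10.4 CPM (3.66 ± 0.15). HEY1, a target of Notch signalling, showed 15.3 and 12.5 CPM and 0.349 and 1.67 CPM (3.73 ± 0.59), and IRX3 showed 10.1 and 8.23 CPM and 0.548 and 0.834 CPM (3.71 ± 0.34). In WT, TBX5 stood at 14.3 and 18.4 CPM and ISL1 at 185 and 144 CPM, and neither differed past the test between ZEB2 shRNA cells and WT. MEF2C, an activator of muscle genes, was intermediate in ZEB2 shRNA cells, with 285 and 241 CPM against 18.4 and 29.1 CPM in ZNF503 shRNA and 1099 and 788 CPM in WT (3.46 ± 0.21). TBX20 differed by 2.67 ± 0.18. GATA4, a factor shared by heart and endoderm, went the other way, with 146 and 140.0 CPM and 241 and 189.9 CPM (-0.59 ± 0.12), as did GATA6 (-0.88 ± 0.11) and TBX3 (-1.24 ± 0.18). GATA5 and SRF did not pass (-0.11 and -0.13).

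Sarcomere genes showed the widest separation among the cardiac lists. Of 23 tested of 26 listed, 19 passed as higher in ZEB2 shRNA cells, 13 by 8-fold at 1% FDR, and none of the list passed as lower. The median was 3.89. ACTA1, a muscle alpha-actin that was not on the list, was called lower in ZEB2 shRNA cells by 8-fold at 1% FDR (-3.37). MYH6, the atrial myosin heavy chain, stood at 2101 and 1851 CPM in ZEB2 shRNA libraries, 13.6 and 7.94 CPM in ZNF503 shRNA libraries and 4569 and 3862 CPM in WT (7.53 ± 0.25, edgeR adjusted p = 2.19e-09). TNNI1, the slow skeletal troponin I of the fetal heart, stood at 663 and 709 CPM and 8.38 and 1.55 CPM (7.16 ± 0.50). MYH7, the ventricular heavy chain, stood at 199 and 166 CPM and 3.19 and 1.87 CPM (6.20 ± 0.22). The 2 ZEB2 shRNA libraries agreed closely while the 2 ZNF503 shRNA libraries of TNNI1 differed several-fold at their low level.

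MYBPC3, which ties myosin into the thick filament, differed by 5.63 ± 0.19, TNNT2, the cardiac troponin T used to mark cardiomyocytes, by 5.51 ± 0.19, and NEBL, a Z-disc protein, by 5.25 ± 0.16. TNNT2 stood at 395 and 375 CPM in ZEB2 shRNA, 9.07 and 7.82 CPM in ZNF503 shRNA and 1398 and 1122 CPM in WT libraries. ACTN2, the sarcomeric alpha-actinin, stood at 35.7 and 24.0 CPM, 1.60 and 0.794 CPM and 171 and 169 CPM (4.70 ± 0.32 between the lines). For ACTN2 and TNNT2 ZEB2 shRNA cells lay between the others. Against WT, 18 of the 23 passed as lower in ZEB2 shRNA cells (median -1.25) and 20 in ZNF503 shRNA cells (median -5.80), comparisons that share the WT libraries. The list summed to 12320 and 11720 CPM in ZNF503 shRNA libraries, most of it TTN. In NKX2-5 shRNA libraries it summed to 8412 and 8331 CPM.

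CSRP3 and MYOM1, proteins of the Z-disc and the M-band, differed by 5.09 ± 0.24 and 4.81 ± 0.31. Smaller differences were found for MYL7 and ACTC1. MYL7, the atrial light chain, stayed at 167 and 128 CPM in ZNF503 shRNA libraries against 1832 and 1786 CPM in ZEB2 shRNA (3.62 ± 0.19), and ACTC1, cardiac alpha-actin, at 353 and 281 CPM against 1185 and 1163 CPM (1.89 ± 0.15). TTN, the giant spring of the sarcomere, did not pass, with 11544 and 11086 CPM in ZEB2 shRNA and 9941 and 9555 CPM in ZNF503 shRNA libraries (0.22 ± 0.12). At day 2 the ZNF503 shRNA libraries held 23.2 and 17.9 CPM of TTN. ANKRD1 and MYOM2 did not pass either, at -0.10 and -0.75. MYL2, NRAP and MYPN, which mark later cardiomyocytes, were under the count filter, and MYL2 and NRAP had no count in any of the 4 libraries.

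The promoters of MYH6 and SMYD1 and of AFP are shown because these genes had the largest changes in the sarcomere, cardiac factor and hepatic lists. They are RefSeq sequences of GRCh38.p14, from 250 bases before to 50 after the start of the gene, 5′ to 3′ on the gene's strand. MYH6 is read from the minus strand of chromosome 14 at 23408224 to 23408523, SMYD1 from the plus strand of chromosome 2 at 88067575 to 88067874, and AFP from the plus strand of chromosome 4 at 73435971 to 73436270. Capitals mark matches on either strand to the motifs searched. The TATA box was searched as TATAAA. A site for HNF1 was searched as GTTAAT, which is one arm of its palindrome. For GATA factors the letters were AGATAA. For ZEB proteins the E-box was CAGGTG. No printed match overlapped another.
MYH6: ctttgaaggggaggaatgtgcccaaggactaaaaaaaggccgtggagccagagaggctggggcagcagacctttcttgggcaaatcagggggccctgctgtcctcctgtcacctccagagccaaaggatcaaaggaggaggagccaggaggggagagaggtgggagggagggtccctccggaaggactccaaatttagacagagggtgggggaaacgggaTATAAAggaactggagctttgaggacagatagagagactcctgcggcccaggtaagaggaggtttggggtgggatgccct
SMYD1: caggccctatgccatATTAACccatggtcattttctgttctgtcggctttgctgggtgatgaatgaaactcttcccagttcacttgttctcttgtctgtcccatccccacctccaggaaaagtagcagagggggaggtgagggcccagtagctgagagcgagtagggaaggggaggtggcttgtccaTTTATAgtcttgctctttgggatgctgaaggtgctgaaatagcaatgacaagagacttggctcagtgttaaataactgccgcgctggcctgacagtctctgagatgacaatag
AFP: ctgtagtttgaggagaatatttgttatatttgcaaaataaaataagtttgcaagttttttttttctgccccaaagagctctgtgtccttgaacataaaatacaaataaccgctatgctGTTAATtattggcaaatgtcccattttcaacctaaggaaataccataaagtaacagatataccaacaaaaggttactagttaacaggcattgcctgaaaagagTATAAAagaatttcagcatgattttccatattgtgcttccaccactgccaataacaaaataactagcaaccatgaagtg
MYH6 and AFP each held TATAAA close to the start, with the first base 30 and 29 bases before it, and SMYD1 held it on the other strand, 63 bases before. AFP held GTTAAT 132 bases before its start and SMYD1 held it on the other strand 235 bases before. No match to AGATAA or CAGGTG lay in these windows. TATAAA was found in 12.0% of 27305 promoters of this length, in 15.6% of the 320 promoters of genes called higher and in 16.3% of the 98 of genes called lower. For CAGGTG these shares were 20.6%, 17.2% and 21.4%, for AGATAA 10.5%, 11.6% and 17.3%, and for GTTAAT 6.89%, 5.62% and 6.12%. No promoter of CDH1, a known ZEB2 target, was used here.

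Genes of calcium handling and excitation followed the sarcomere genes in part. Of 23 tested, 15 passed as higher in ZEB2 shRNA cells, 8 by 8-fold at 1% FDR, and 3 passed as lower, with a median of 2.49. The summed level of the list went the other way, at 1825 and 1827 CPM in ZEB2 shRNA and 2627 and 3029 CPM in ZNF503 shRNA libraries. RYR2, the release channel of the sarcoplasmic reticulum, stood at 276 and 215 CPM in ZEB2 shRNA and 11.5 and 8.66 CPM in ZNF503 shRNA libraries (4.62 ± 0.22). PLN, the brake of the calcium pump, stood at 22.4 and 19.4 CPM and 0.997 and 0.874 CPM (4.49 ± 0.24), with 115 and 117 CPM in WT. KCNJ5, a potassium channel of atrial and pacemaker cells, differed by 5.33 ± 0.36, HRC, a calcium-binding protein of the reticulum, by 5.02 ± 0.42, and TRDN, which anchors the release channel, by 4.55 ± 0.28. NPPA, the atrial natriuretic peptide, rested on 0 and 2 counts in ZNF503 shRNA and 124 and 32 in ZEB2 shRNA libraries, a ratio of 47.1 with an exact 95% interval of 12.8 to 392 that covers counting error only. The members lower in ZEB2 shRNA cells were ATP2A2 (-0.68 ± 0.11), NPPB (-1.03 ± 0.19) and GJA1 (-1.51 ± 0.23), a pump, a stress-induced peptide and a gap junction protein that other cells also express.

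Secreted proteins of liver and yolk sac were higher in ZNF503 shRNA cells. Of 24 tested, 18 passed as lower in ZEB2 shRNA cells, 5 of them by 8-fold at 1% FDR, and none passed as higher, with a median of -1.93. Fewer members passed in each fit with 1 library left out. AFP, the fetal counterpart of albumin, lies on the plus strand of chromosome 4, at 74296855 to 74321891 of GRCh37. It stood at 484 and 451 CPM in ZNF503 shRNA libraries, 28.03 and 47.4 CPM in ZEB2 shRNA and 93.9 and 184 CPM in WT (-3.66 ± 0.30, edgeR adjusted p = 1.28e-06). APOB, the scaffold of lipoproteins, stood at 2733 and 2794 CPM in ZNF503 shRNA and 181 and 264 CPM in ZEB2 shRNA libraries (-3.64 ± 0.30). TTR, the thyroid hormone carrier, stood at 1382 and 1521 CPM and 119.9 and 168 CPM (-3.34 ± 0.25). The groups did not overlap in these genes, and the 2 ZEB2 shRNA libraries were further apart from each other in relative terms than the 2 ZNF503 shRNA libraries.

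FGG and FGA, chains of fibrinogen, differed by -3.64 ± 0.32 and -3.07 ± 0.33, and RBP4, the retinol carrier, by -2.59 ± 0.30. APOA1 stood at 1038 and 940.2 CPM in ZNF503 shRNA libraries and 128 and 217 CPM in ZEB2 shRNA libraries, with 66.0 and 154 CPM in WT (-2.52 ± 0.32). ALB, the product of mature hepatocytes, remained low everywhere, at 1.79 and 4.37 CPM in ZNF503 shRNA and 0.928 and 1.25 CPM in ZEB2 shRNA libraries (-1.59 ± 0.46). Its call was lost without ZEB2 shRNA replicate 1 and without ZNF503 shRNA replicate 2, where its log2 fold change was -0.79 (edgeR adjusted p = 0.225). AHSG, APOM, APOC3, AMN, FABP1 and APOC2 did not pass. Against WT, 2 of the 24 passed as lower in ZEB2 shRNA cells (median 0.03) and 17 passed as higher in ZNF503 shRNA cells (median 1.75). AFP was among those lower in ZEB2 shRNA cells than in WT (-1.91 ± 0.28). The summed level of the hepatic list was 9211 to 9254 CPM in ZNF503 shRNA and 1434 to 2014 CPM in ZEB2 shRNA libraries. NKX2-5 shRNA libraries held more, at 13880 and 13900 CPM, so a high level was not particular to ZNF503 shRNA cells. The part of the hepatic list in the other differences was not tested.

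The transcription factors of endoderm moved with those products. Of 15 tested of 16 listed, 11 passed as lower in ZEB2 shRNA cells and 3 as higher (median -1.71). The list summed to 398.8 and 432.5 CPM in ZEB2 shRNA and 1161 and 1071 CPM in ZNF503 shRNA libraries. NKX2-5 shRNA libraries were high as well, at 934.8 and 951.8 CPM. HNF4A, a nuclear receptor of liver and visceral endoderm, stood at 562 and 509 CPM in ZNF503 shRNA and 74.2 and 92.3 CPM in ZEB2 shRNA libraries (-2.69 ± 0.28). FOXA2, a pioneer factor of endoderm, stood at 94.1 and 91.6 CPM and 23.2 and 22.6 CPM (-2.02 ± 0.29), and SOX17 at 56.1 and 44.8 CPM and 12.3 and 19.2 CPM (-1.71 ± 0.23). ONECUT1 differed by -2.21 ± 0.29 and CDX2 by -2.91 ± 0.46. The 3 higher in ZEB2 shRNA cells were PROX1 (2.79 ± 0.18), which is also made in heart and lymphatic cells, HHEX (1.35 ± 0.17) and OTX2 (0.65 ± 0.12). SOX17 was also above WT in ZEB2 shRNA cells (1.25 ± 0.24).

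**Figure D3:**
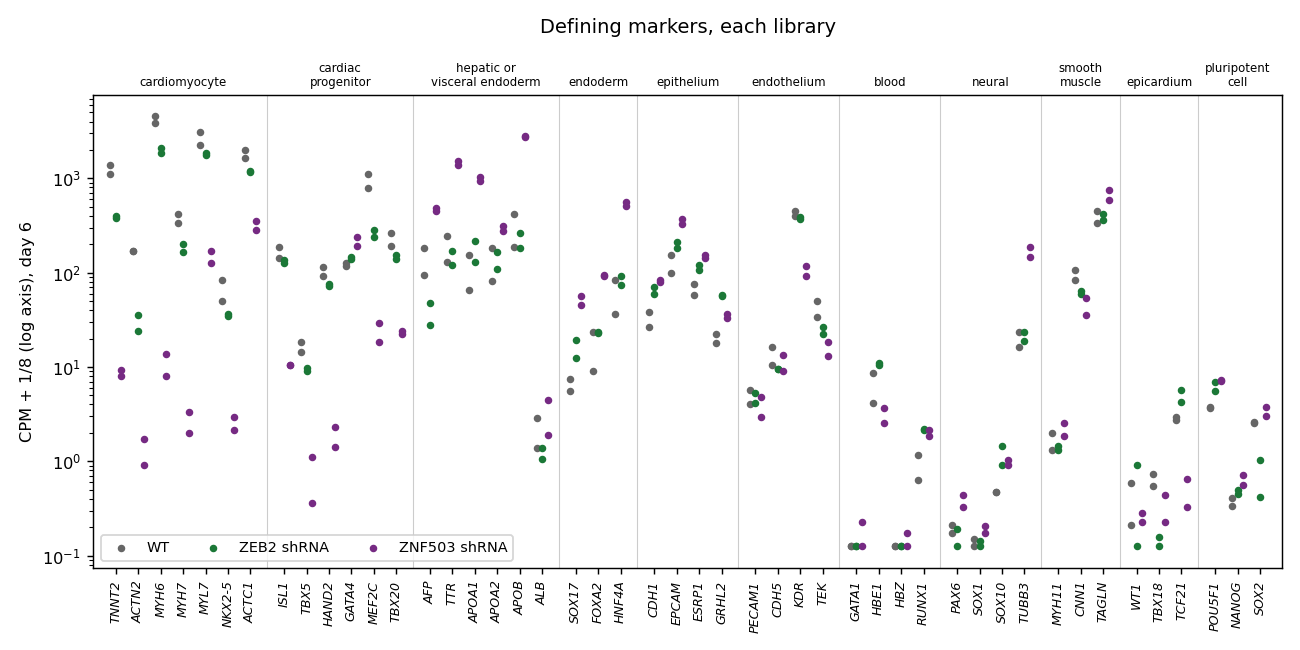
CPM + 1/8 on a log axis for the defining markers of each cell type at day 6, with 1 point per library for WT (grey), ZEB2 shRNA (green) and ZNF503 shRNA (purple). The cardiomyocyte markers TNNT2, ACTN2, MYH6 and MYH7 are at 0.794 to 13.6 CPM in ZNF503 shRNA libraries, while AFP, TTR, APOA1 and APOB are highest there.

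Epithelial genes divided. Of 26 tested, 15 passed as lower and 4 as higher in ZEB2 shRNA cells, none by 8-fold (median -0.63). CDH1, which encodes E-cadherin, did not pass: it stood at 69.4 and 58.8 CPM in ZEB2 shRNA and 80.2 and 82.99 CPM in ZNF503 shRNA libraries (-0.34 ± 0.16, edgeR adjusted p = 0.0971). It passed as lower under some of the alternative settings. CDH1 was above its WT level of 26.3 and 38.4 CPM in each line, by 0.98 ± 0.16 in ZEB2 shRNA and 1.33 ± 0.17 in ZNF503 shRNA cells. SPINT1, a protease inhibitor of epithelia, stood at 148 and 116 CPM in ZNF503 shRNA and 26.5 and 30.1 CPM in ZEB2 shRNA libraries (-2.23 ± 0.19). CRB3, a polarity protein, differed by -2.10 ± 0.20, OCLN, of tight junctions, by -1.86 ± 0.13, ST14, a membrane protease, by -1.73 ± 0.27, and ESRP2, a splicing factor of epithelia, by -1.67 ± 0.22.

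KRT7, a keratin of simple epithelia, was among the exceptions. It stood at 51.4 and 66.0 CPM in ZEB2 shRNA, 7.43 and 8.02 CPM in ZNF503 shRNA and 7.97 and 11.6 CPM in WT libraries (2.92 ± 0.21 between the lines and 2.57 ± 0.20 for ZEB2 shRNA over WT). GRHL2, an activator of epithelial genes, was also higher in ZEB2 shRNA cells, at 56.9 and 57.3 CPM against 32.7 and 36.7 CPM (0.72 ± 0.14). The other markers EPCAM and ESRP1 were lower (-0.84 ± 0.17 and -0.40 ± 0.13), and the call of ESRP1 was lost in 3 of the 4 fits without 1 library. Against WT, 15 of the 26 passed as higher in ZEB2 shRNA cells and none as lower, and 20 passed as higher and 2 as lower in ZNF503 shRNA cells.

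Mesenchymal genes leaned by count to the ZEB2 shRNA side, with 13 of 21 tested higher and 4 lower (median 1.29). The summed level of the list went the other way, at 6095 and 6258 CPM in ZEB2 shRNA and 8089 and 7049 CPM in ZNF503 shRNA libraries. LUM, a matrix proteoglycan, stood at 176 and 204 CPM in ZEB2 shRNA and 20.4 and 19.4 CPM in ZNF503 shRNA libraries (3.25 ± 0.31). CDH11 differed by 2.58 ± 0.16, COL1A1 by 2.34 ± 0.24 and MMP2, a gelatinase, by 2.24 ± 0.28. PRRX1, a homeobox factor of mesenchyme, was sparse (1.17 and 1.32 CPM against 0.399 and 0.0794 CPM, 2.43 ± 0.72), and its call was lost without ZEB2 shRNA replicate 1 or ZNF503 shRNA replicate 2. The members higher in ZNF503 shRNA cells were S100A4 (-2.19 ± 0.31), SPARC (-1.53 ± 0.12), CDH2 (-1.27 ± 0.11) and FN1 (-0.38 ± 0.13).

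Several genes of the NODAL pathway, NODAL and LEFTY2 among them, were higher in ZEB2 shRNA cells than in both ZNF503 shRNA and WT cells. NODAL is a TGF-beta ligand of mesendoderm, CRIPTO and CFC1 are its coreceptors, and LEFTY1, LEFTY2 and CER1 are secreted inhibitors that the pathway itself induces. NODAL stood at 115 and 125.2 CPM in ZEB2 shRNA, 28.5 and 20.1 CPM in ZNF503 shRNA and 2.14 and 4.23 CPM in WT libraries (2.31 ± 0.25 between the lines, 5.17 ± 0.29 for ZEB2 shRNA over WT). CFC1 stood at 30.1 and 20.7 CPM, 0.598 and 0.476 CPM and 27.3 and 22.0 CPM. It thus differed between the lines (5.58 ± 0.33) while ZEB2 shRNA cells were near WT (0.06). The near-identical copy CFC1B makes these values uncertain. GDF3, another ligand, differed by 4.88 ± 0.41 and CRIPTO by 1.07 ± 0.12.

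Among the inhibitors, LEFTY2, on the minus strand of chromosome 1 at 226124298 to 226129083, stood at 28.03 and 25.6 CPM in ZEB2 shRNA libraries. It was at 0.199 and 0.0794 CPM in ZNF503 shRNA and 0.0857 and 0.235 CPM in WT libraries, so that ZEB2 shRNA cells stood apart from each (7.62 ± 0.39 against ZNF503 shRNA, 7.20 ± 0.36 against WT). LEFTY1 showed 3.22 and 2.72 CPM, 0.698 and 0.159 CPM and 0.343 and 0 CPM (2.87 ± 0.75, a call lost without ZEB2 shRNA replicate 1 or ZNF503 shRNA replicate 2), and CER1 showed 11.1 and 16.8 CPM, 1.25 and 1.23 CPM and 1.16 and 1.27 CPM (3.47 ± 0.34). Signal carriers and receptors moved less: SMAD2 was higher (0.81 ± 0.11) and SMAD3 lower (-0.90 ± 0.12) in ZEB2 shRNA cells, and the receptor ACVR2B did not pass (-0.05). In all, 10 of 19 tested passed as higher and 5 as lower, with a median of 0.45.

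Genes of the mesendoderm stage leaned to the ZEB2 shRNA side, with 6 of 10 tested passing as higher than in ZNF503 shRNA cells and none as lower (median 2.05). Against WT, 2 of the 10 passed as higher in ZEB2 shRNA cells and none as lower. The lean was there at day 2, with 9 of 11 tested higher (median 2.535). In the test of the difference between days, 3 of 11 passed towards ZEB2 shRNA and 3 towards ZNF503 shRNA cells. EOMES, a T-box factor that NODAL induces, stood at 179 and 165 CPM in ZEB2 shRNA, 17.0 and 12.5 CPM in ZNF503 shRNA and 10.8 and 10.9 CPM in WT libraries (3.55 ± 0.20 between the lines, 3.98 ± 0.20 for ZEB2 shRNA over WT). FGF8 stood at 25.7 and 23.8 CPM and 1.147 and 0.596 CPM (4.86 ± 0.37), with 30.1 and 19.3 CPM in WT. MIXL1 differed by 2.92 ± 0.62 at low levels, and LHX1, whose call was lost without ZEB2 shRNA replicate 1, by 0.88 ± 0.22. TBXT, the defining gene of the primitive streak, stood at 0.326 and 0.881 CPM and 0.199 and 0.397 CPM and did not pass. Without the deeper ZEB2 shRNA library 3 of these members passed.

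BMP genes moved in opposite directions, with 10 of 23 higher and 9 lower (median -0.01). BMP4 was higher in ZEB2 shRNA cells, at 179 and 164 CPM against 28.5 and 24.9 CPM (2.68 ± 0.12), as was BMPER, a secreted modulator, at 306 and 279.8 CPM against 19.1 and 26.8 CPM (3.67 ± 0.19). BMP6, a ligand that liver also uses, stood at 291 and 249.8 CPM in ZNF503 shRNA and 15.5 and 21.3 CPM in ZEB2 shRNA libraries, with 11.9 and 27.9 CPM in WT (-3.91 ± 0.31). BMP10, a ligand of trabecular heart muscle, was lower in ZEB2 shRNA cells (-2.24 ± 0.44). The homeobox target MSX1 was higher (2.51 ± 0.35).

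WNT genes divided as well, with 10 of 21 tested higher and 5 lower (median 0.12). LGR5, a receptor for R-spondins, stood at 75.7 and 65.1 CPM in ZEB2 shRNA, 2.09 and 1.27 CPM in ZNF503 shRNA and 4.97 and 5.199 CPM in WT libraries (5.41 ± 0.26). LEF1, a nuclear effector, stood at 54.1 and 40.7 CPM and 2.04 and 3.22 CPM (4.16 ± 0.23). WNT4 and WNT6 differed by 3.53 ± 0.48 and 2.93 ± 0.64. RSPO3, a ligand of LGR5, went the other way, at 171 and 193 CPM in ZNF503 shRNA and 39.2 and 45.5 CPM in ZEB2 shRNA libraries (-2.11 ± 0.12). AXIN2, the usual readout of canonical signalling, stood at 22.7 and 21.8 CPM and 20.3 and 20.7 CPM and did not pass (0.12 ± 0.16).

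In the retinoic acid list 5 of 12 tested were higher and 3 lower in ZEB2 shRNA cells. RDH10, which makes retinal, stood at 96.7 and 96.5 CPM, against 11.0 and 14.2 CPM in ZNF503 shRNA and 15.7 and 17.3 CPM in WT libraries (2.93 ± 0.15), and the retinol receptor STRA6 differed by 3.02 ± 0.32. ALDH1A1, which makes retinoic acid, was at 248 and 281 CPM in ZNF503 shRNA and 35.4 and 51.1 CPM in ZEB2 shRNA libraries (-2.63 ± 0.34). DHRS3 (-1.66 ± 0.18) and CYP26A1 (-1.22 ± 0.22), which limit the pathway, were lower with it. HOX genes, some of which retinoic acid is known to induce, passed in both directions. HOXB2 stood at 13.0 and 18.6 CPM and 0.399 and 0.874 CPM (4.57 ± 0.34). HOXB4 differed by 5.32 ± 0.66 and HOXB6, whose call was lost without ZNF503 shRNA replicate 1, by 3.62 ± 0.97. HOXB3 had 759 and 136 counts in ZEB2 shRNA libraries and 2 and 0 in ZNF503 shRNA libraries. Of 32 HOX genes listed, 24 were under the count filter, 6 passed as higher and 2 as lower. The other members higher in ZEB2 shRNA cells were HOXB5, with 44 and 4 counts, and HOXA13, with 42 and 6, both with none in ZNF503 shRNA libraries. HOXA3, among those lower, had no count in ZEB2 shRNA libraries and 12 and 6 in ZNF503 shRNA libraries. HOXB genes overlap one another and neighbouring antisense genes on the chromosome, so their counts may be shared.

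Of the other lineage lists, the blood list passed in 1 direction and the smooth muscle, endothelial, epicardial and neural lists in both. Smooth muscle genes had 4 of 12 higher and 4 lower, with LMOD1 (2.82 ± 0.31) and ACTA2 (2.48 ± 0.20), which the embryonic heart also makes, and DES (2.04 ± 0.36) on the ZEB2 shRNA side. ACTG2 (-3.92 ± 0.78) and CALD1 (-1.39 ± 0.13) were on the other, and the defining marker MYH11 stood at 1.21 and 1.32 CPM and 2.44 and 1.71 CPM. Endothelial genes had 7 of 17 higher and 3 lower. KDR, the VEGF receptor of mesoderm, stood at 385 and 374 CPM and 92.6 and 118 CPM (1.85 ± 0.13), while PECAM1 and CDH5 did not pass (0.25 and -0.23). Blood genes had 10 of 14 tested higher and none lower. GYPB, a glycophorin of red cells whose counts may hold reads of related genes, was among them, whereas GATA1 and HBZ, which define primitive red cells, had at most 2 counts in any of the 4 libraries. HBE1, embryonic globin, stood at 10.8 and 10.4 CPM and 2.39 and 3.53 CPM (1.83 ± 0.31).

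Epicardial genes passed in 4 of 8 tested, with TCF21 (3.72 ± 0.44), LRRN4 (3.04 ± 0.25) and BNC1 (1.87 ± 0.19) higher in ZEB2 shRNA cells and TBX18 lower, with 2 and 0 counts in ZEB2 shRNA and 2 and 8 in ZNF503 shRNA libraries. The call of TBX18 was lost under DESeq2 (adjusted p = 0.0814), with no filter (edgeR adjusted p = 0.0704), with the replicate block (edgeR adjusted p = 0.062) and in 3 of the 4 fits without 1 library, where the log2 fold change ranged from -5.69 to -1.78. WT1 did not pass. Neural genes had 5 of 11 tested higher and 3 lower. TUBB3, a tubulin of neurons and other cells, stood at 186 and 146 CPM in ZNF503 shRNA and 18.6 and 23.4 CPM in ZEB2 shRNA libraries (-3.004 ± 0.20), NCAM1 was higher in ZEB2 shRNA cells (3.39 ± 0.21) and so was ELAVL4 (4.75 ± 0.57). PAX6 and SOX1 were under the filter. Of pluripotency genes, 2 of 12 tested were higher and 4 lower in ZEB2 shRNA cells. L1TD1, an RNA-binding protein of stem cells, stood at 419 and 471 CPM, against 29.9 and 35.2 CPM in ZNF503 shRNA and 97.2 and 95.5 CPM in WT libraries (3.77 ± 0.13), POU5F1 and NANOG did not pass (-0.24 and -0.60), and SOX2 was lower (-2.22 ± 0.43).

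Genes of the cell cycle were higher in ZEB2 shRNA cells in 16 of 18 cases, none by 8-fold, with a median of 1.26. TOP2A, which untangles replicated DNA, stood at 628 and 663 CPM in ZEB2 shRNA, 142 and 177 CPM in ZNF503 shRNA and 659 and 657 CPM in WT libraries (2.01 ± 0.12). PCNA, the replication clamp, differed by 1.81 ± 0.15, CCNA2, a cyclin, by 1.73 ± 0.13, and MKI67, the proliferation antigen, by 1.11 ± 0.13. MCM2 and MCM5 did not pass (-0.03 and 0.24). Against WT, none of the 18 passed in ZEB2 shRNA cells and 16 passed as lower in ZNF503 shRNA cells, with medians of 0.15 and -1.17. NKX2-5 shRNA libraries were low as well, with a list sum of 634.2 and 694.1 CPM against 976.2 and 1035 CPM in ZNF503 shRNA libraries.

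Stress and p53 targets lay on the ZNF503 shRNA side, with 14 of 15 lower in ZEB2 shRNA cells and none higher (median -0.85). The list summed to 549.7 and 594.9 CPM in ZEB2 shRNA and 952.6 and 965.2 CPM in ZNF503 shRNA libraries. NKX2-5 shRNA libraries were high as well, at 891.3 and 986.2 CPM. GDF15, a stress hormone, stood at 7.03 and 5.08 CPM in ZNF503 shRNA and 0.896 and 1.03 CPM in ZEB2 shRNA libraries (-2.68 ± 0.34), and HMOX1, which degrades haem, at 44.02 and 41.0 CPM and 8.74 and 6.68 CPM (-2.43 ± 0.29). CDKN1A, the cell cycle inhibitor p21, differed by -1.83 ± 0.33, and TRIB3 and CHAC1, targets of the integrated stress response, by -2.06 ± 0.32 and -1.85 ± 0.26. Their part in the other differences between the lines was not tested. Interferon-response genes passed in 6 of 8 tested, 3 in each direction, with IFIT1 at 11.1 and 9.48 CPM and 0.199 and 0.238 CPM (5.53 ± 0.34) and MX1 at 0.130 and 0.294 CPM and 1.20 and 1.39 CPM (-2.89 ± 0.58), and the call of MX1 was lost without ZEB2 shRNA replicate 1.

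**Figure D4:**
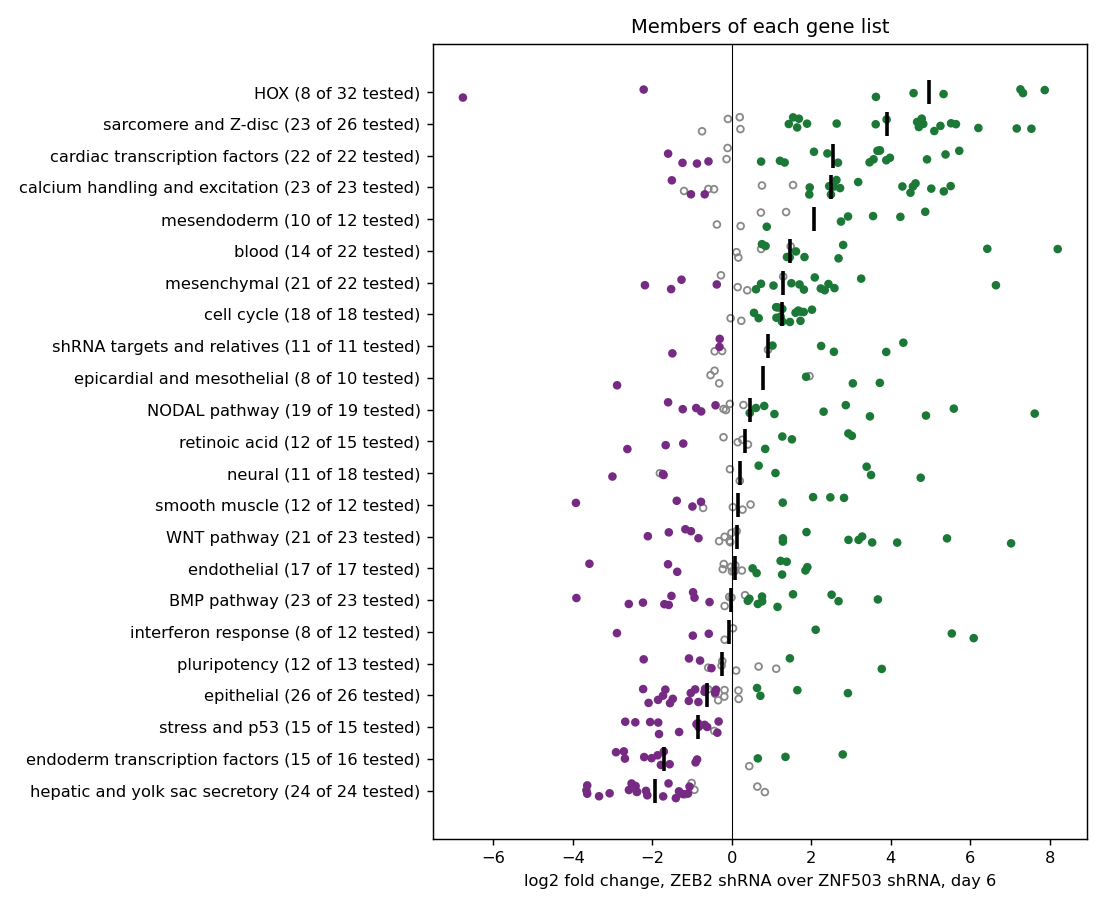
Log2 fold change of ZEB2 shRNA over ZNF503 shRNA at day 6 for the tested members of each gene list, ordered by the list's median, which the black bar marks. Filled points passed 5% FDR (green higher, purple lower in ZEB2 shRNA cells) and open points did not, and the sarcomere list (median 3.89) and the hepatic list (median -1.93) lie near opposite ends. With the 3 HOX members that had no count in 1 group set to their lower bound, the HOX median was 2.85 in place of 4.95.

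The largest rises over all genes with at least 5 CPM in the higher group were led by genes that ZNF503 shRNA libraries hardly held. DHRS9, a retinol dehydrogenase, had 1491 and 520 counts in ZEB2 shRNA libraries and 0 in each ZNF503 shRNA library, which makes it at least 233-fold higher against a floor of 3 counts per library. CD300E, a myeloid receptor, and DNAJC5G had no count there either and were at least 76.7-fold and 38.2-fold higher. ABCB11, the bile salt exporter, had 1031 and 251 counts against 0 and 1, a ratio of 774 (exact 95% interval 139 to 30600), and ADAMTS8, a protease, 2571 and 486 against 0 and 2, a ratio of 922 (255 to 7620). BRINP2 had 1410 and 200 counts against 1 and 2, a ratio of 324 (111 to 1570). PI15, a protease inhibitor, stood at 130.5 and 138 CPM and 0.249 and 0 CPM. SERHL2 stood at 166 and 179.6 CPM and 0.897 and 0.675 CPM (7.79 ± 0.22), with SERHL as a near copy that may share its reads. GYPB, with 900 and 181 counts against 0 and 2, and HOXB3 completed the 10. ABCB11 and DHRS9 lie close together on chromosome 2, at 169772008 to 169887834 and 169921299 to 169952677 of GRCh37.

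The largest falls were genes that ZEB2 shRNA cells hardly expressed. KRT4, a keratin of stratified epithelia, stood at 9.97 and 7.74 CPM in ZNF503 shRNA and 0.0977 and 0.0735 CPM in ZEB2 shRNA libraries (-6.52 ± 0.44). AVPR1A, a vasopressin receptor of liver and other tissues, stood at 27.0 and 31.6 CPM and 0.326 and 0.588 CPM (-6.22 ± 0.44), and SLC6A4, the serotonin transporter, at 102 and 80.2 CPM and 1.25 and 2.204 CPM (-5.89 ± 0.41). COL4A3, a basement membrane collagen, stood at 58.4 and 41.8 CPM and 1.51 and 1.47 CPM (-5.06 ± 0.24). TDO2, the liver enzyme that opens tryptophan, differed by -4.86 ± 0.43, LIPH by -5.06 ± 0.55, RGS9 by -4.93 ± 0.56, GADL1 by -4.63 ± 0.39 and NMUR1 by -4.56 ± 0.66. TDO2, GADL1 and CCDC125 were also lower in ZEB2 shRNA cells than in WT. CCDC125 stood at 0.651 and 1.03 CPM in ZEB2 shRNA, 19.5 and 19.7 CPM in ZNF503 shRNA and 8.36 and 11.9 CPM in WT libraries (-4.70 ± 0.27). It was also lower in the ZEB2 shRNA line on the other days, with -4.13 ± 0.30 at day 2 and -4.27 ± 0.30 at day 0.

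Undifferentiated cells and cells at the mesendoderm stage of the same lines were compared in the same way. At day 0, they differed by 2-fold at 10% FDR in 1284 genes (7.60%), 600 of them higher in ZEB2 shRNA cells (3.55%) and 684 lower (4.05%). At day 2, they differed by 4-fold at 10% FDR in 465 genes (2.81%), 335 of them higher (2.03%) and 130 lower (0.787%). At the day 6 threshold of 8-fold and 1% FDR 98 genes were called at day 0 (0.580%), 79 higher (0.468%) and 19 lower (0.112%). At day 2 they were 151 (0.914%), 113 higher (0.684%) and 38 lower (0.230%). Of the 452 genes called higher at day 6, 314 were tested at day 2 and 23 were called there in the same direction. These are 5.09% of the day 6 calls, untested genes included, and 20.4% of the 113 day 2 calls. At 5% FDR 107 of the 314 passed in the same direction at day 2 and 57 in the opposite one. Over all genes tested at day 2, 14.5% passed as higher in ZEB2 shRNA cells and 14.8% as lower. Of the 121 called lower, 66 were tested at day 2 and 7 were called, or 5.79% of the day 6 calls and 18.4% of the 38 day 2 calls. At 5% FDR 17 of the 66 passed in the same direction at day 2 and 7 in the opposite one. At day 0 the shared calls were 7 and 2.

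The contrast itself differed between day 6 and day 2 by 8-fold at 1% FDR in 551 of 17358 genes (3.17%), 361 towards ZEB2 shRNA (2.08%) and 190 towards ZNF503 shRNA cells (1.09%). At 5% FDR 41.4% passed, 21.6% of genes tested towards ZEB2 shRNA and 19.8% towards ZNF503 shRNA cells, and on single days the shares were 25.6% for undifferentiated cells (13.0% up and 12.6% down in the ZEB2 shRNA line) and 29.3% for day 2 (14.5% up and 14.8% down). Among 15602 genes tested on both days, 1382 (8.86%) passed 5% FDR with opposite signs on the 2 days and passed the test of the difference, 806 of them higher in ZEB2 shRNA cells at day 6. Some endoderm factors were among these. SOX17 stood at 51.3 and 66.0 CPM in ZEB2 shRNA and 3.32 and 4.41 CPM in ZNF503 shRNA libraries at day 2, with 57.0 and 62.6 CPM in WT, so that ZNF503 shRNA cells were low at day 2 and high at day 6. Its log2 difference between the lines was 3.99 ± 0.18 at day 2 and -1.71 ± 0.23 at day 6. GATA4 went from 1.47 ± 0.16 to -0.59 ± 0.12 and FOXA2 from 0.50 ± 0.14 to -2.02 ± 0.29.

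Some cardiac and signalling genes turned the other way. NEBL stood at 42.0 and 35.9 CPM in ZEB2 shRNA and 136 and 119.7 CPM in ZNF503 shRNA libraries at day 2 (-1.71 ± 0.11), before its day 6 difference of 5.25 ± 0.16. LEF1 went from -1.04 ± 0.17 to 4.16 ± 0.23, RYR2 from -0.83 ± 0.10 to 4.62 ± 0.22 and LEFTY2 from -1.27 ± 0.22 to 7.62 ± 0.39. ZEB1 was higher in ZNF503 shRNA cells at day 2, at 4.43 and 3.56 CPM against 1.26 and 1.34 CPM (-1.64 ± 0.28), and lower there at day 6. By contrast ISL1 kept its direction, with 4.23 and 3.16 CPM in ZEB2 shRNA and 0.318 and 0.190 CPM in ZNF503 shRNA libraries at day 2 (3.68 ± 0.34), as did MESP1, the early cardiac mesoderm factor, with 7.68 and 12.1 CPM and 0.545 and 0.570 CPM (4.16 ± 0.29). EOMES stood at 613 and 632 CPM in ZEB2 shRNA, 275 and 365 CPM in ZNF503 shRNA and 599 and 655 CPM in WT libraries at day 2 (0.96 ± 0.11).

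**Figure D5:**
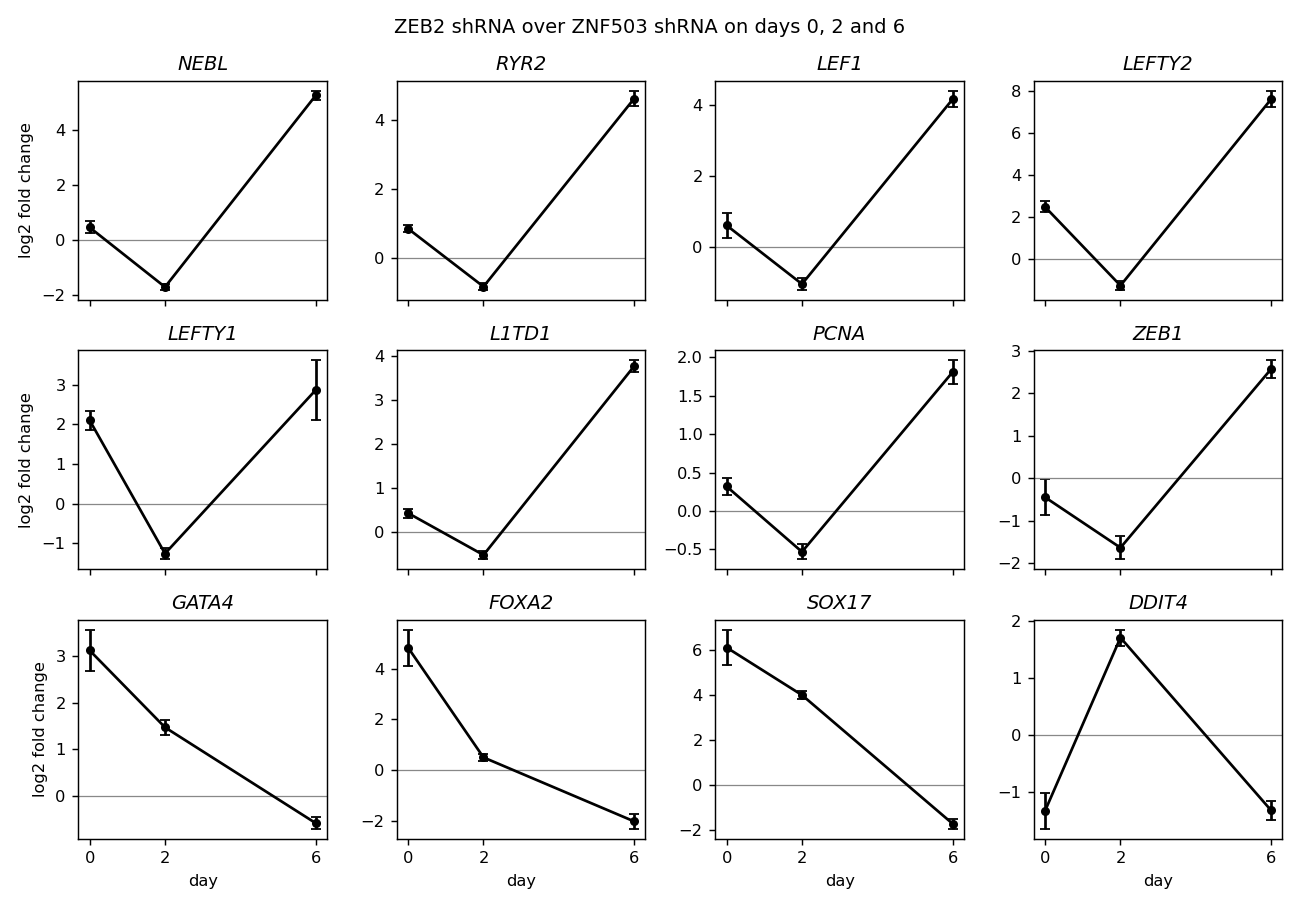
Log2 fold change of ZEB2 shRNA over ZNF503 shRNA on days 0, 2 and 6 for 12 genes whose contrast changed sign between day 2 and day 6, with bars of 1 standard error from the fit of that day. SOX17 falls from 3.99 at day 2 to -1.71 at day 6 and NEBL climbs from -1.71 to 5.25, and the y axes differ between panels.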

How the data were processed

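RNA was prepared with a stranded total RNA kit and sequenced in pairs. Per the labels and the study's methods, the authors aligned reads to hg19 with TopHat2 2.0.14 (Bowtie2 2.2.1.0, SAMtools 0.1.19.0) and deposited counts per RefSeq accession, not normalized. Whether counting used strand or left out introns is not given in the sources used here. Accessions were paired with symbols through RefSeq of GRCh38.p14, used for names alone (96.78% matched, holding 97.09% of counts), and each of 23189 symbols kept its accession with the largest total over days 0, 2 and 6. Levels of genes of different length are not compared.

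Counts of the 8 libraries of day 6 were fitted in edgeR 4.0.16 (R 4.3.3) with TMM scaling, filterByExpr and the quasi-likelihood test, adjusted by Benjamini-Hochberg over all genes tested. Days 0 and 2 were fitted alike, and the difference of the contrast between days 2 and 6 in 1 fit of 16 libraries. A standard error is the fold change over the square root of F. The steps were tested on simulated data. Same-numbered replicates deviated together little (correlation of deviations 0.0945 for the compared groups), and replicate numbers were not used as pairs in the main fit. With 2 libraries per group this check cannot exclude a shared batch. Replicates of each group differed by more than counting noise (chi-square per gene 10.7 to 25.8). Intervals and floors of 3 counts cover counting error only.

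Gene lists and members were chosen with earlier results of these data known. Genes named are the targets, the 10 largest rises and falls among calls with at least 5 CPM and no overlap, up to 6 members per list with at least 1 CPM and the largest change, fixed markers, and lists with 5 or fewer passing members. Other members of the lists that are named were chosen after their values were seen. Some list members are counted but not reported here by name. Coordinates are GRCh37 with the GENCODE v44 lift. Of 4 promoters asked for, 3 were found. Alternatives covered scaling, DESeq2 1.42.0, filters, libraries in the fit, the replicate block, each library left out, the row kept per gene and the threshold.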

Additional observations from a re-analysis of the deposited data

Results flagged for a closer look

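The contrast between the lines was measured on day 2 and day 6, and a test of the difference marked genes whose contrast was not the same on the 2 days. It called 551 genes by 8-fold at 1% FDR (3.17% of those tested), and 20 of the genes named here passed on each day with opposite signs. Values are the day 6 contrast minus the day 2 contrast on the log2 scale, with its standard error. The day 6 call was lost without ZEB2 shRNA replicate 1 for LEFTY1, APOA2 and TEK, without ZNF503 shRNA replicate 1 for TEK and SYNPO2, without ZNF503 shRNA replicate 2 for LEFTY1, APOA2 and SYNPO2, and without ZEB2 shRNA replicate 2 for SYNPO2. SYNPO2 was also lost under DESeq2, library totals without TMM, the replicate block and 1 fit of all days.

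Towards ZEB2 shRNA cells at day 6 the difference was 11.85 ± 0.75 for ADAMTS8 (2 counts over both ZNF503 shRNA libraries at day 6), 8.89 ± 0.43 for LEFTY2, 6.95 ± 0.20 for NEBL, 5.44 ± 0.25 for RYR2, 5.19 ± 0.29 for LEF1, 4.29 ± 0.17 for L1TD1, 4.21 ± 0.30 for ZEB1 and 4.16 ± 0.60 for LEFTY1. It was 10.55 ± 1.44 for SYNPO2, which stood at 0 CPM in both ZEB2 shRNA libraries at day 2, so that its size is no bound, and 4.21 ± 0.43 for TEK, an angiopoietin receptor. For genes of the cell cycle it was 2.33 ± 0.19 for PCNA, 2.31 ± 0.15 for RRM2, 2.24 ± 0.14 for CCNA2 and 2.2 for BUB1.

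Towards ZNF503 shRNA cells it was -6.21 ± 0.37 for VWF, -5.70 ± 0.33 for SOX17, -3.68 ± 0.77 for APOA2, -3.04 ± 0.24 for DDIT4, -2.52 ± 0.36 for FOXA2 and -2.08 ± 0.19 for GATA4. VWF, known from endothelium, stood at 30.6 and 37.7 CPM in ZEB2 shRNA and 1.25 and 1.61 CPM in ZNF503 shRNA libraries at day 2, with 24.95 and 32.0 CPM in WT, and at 2.28 and 1.32 CPM and 6.23 and 5.48 CPM at day 6. No group of days 0, 2 and 6 held the 4 libraries that the check for a library apart from its group needs, and the libraries of day 10 were not used here.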

How the results depend on the processing

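The 573 calls became 440 to 540 with 1 library left out and 497 to 613 under other scaling, filters, tools, rows or libraries in the fit, with 76.8% to 83.2% of calls higher in ZEB2 shRNA cells. At 4-fold and 10% FDR 1488 genes were called (988 higher, 500 lower), and at 5% FDR with no fold 8093 (4204 higher, 3889 lower). Leaving out 1 library gave 353 to 432 calls higher and 82 to 113 lower, 49 to 63 genes for ZEB2 shRNA against WT, and log2 fold changes of 2.15 to 2.37 for ZEB2 and 4.24 to 4.39 for ZNF503. ZEB2 shRNA against WT fell from 76 to 49 genes without ZEB2 shRNA replicate 2. With 1 library left out, members passing were 3 to 6 for mesendoderm, 5 to 7 for HOX, 6 to 8 for the endothelial list and 6 to 9 for blood, the lowest without ZEB2 shRNA replicate 1, the deeper library, for mesendoderm, HOX and blood and without ZNF503 shRNA replicate 1 for the endothelial list. HOX had 5 members passing with at least 1 CPM in 2 libraries and 4 with the 4 compared libraries alone. With 1 library left out the median of the BMP list lay between -0.07 and 0.21 and that of the interferon list between -0.58 and 1.10, both positive without ZNF503 shRNA replicate 2. The replicate block gave 553 calls at day 6, 1241 at day 0, 468 at day 2 and 535 for the difference between days. Of 2305 refitted values of 178 named genes, 2244 kept their side of the threshold, 50 no longer passed (19 genes, ALB, ESRP1, LHX1, MX1, SYNPO2 and TEK among them) and 11 newly passed, CDH1 (-0.34) and CNN1 among them. No value changed direction where it passed in either fit, and changes of direction among values that passed in neither were not counted. The cause of these shifts was not tested. At 13807853 counts in the shallowest library, 3 counts are 0.217 CPM, so differences among genes near or below that level rest on few counts.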

Other observations

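Some gene families were looked at after their values were seen, so they are given as descriptions. Replication-dependent histone genes, whose messages lack a poly(A) tail and are kept in total RNA, were 69 by symbol, and 65 of 66 tested passed as higher in ZEB2 shRNA cells at day 6, 27 of them by 8-fold at 1% FDR (median 2.79). Their summed level was 24800 and 22500 CPM in ZEB2 shRNA, 3520 and 3350 CPM in ZNF503 shRNA and 14900 and 10900 CPM in WT libraries. In NKX2-5 shRNA libraries it was 2315 and 3204 CPM. At day 2 the lines stood in the reverse order, with 13700 and 15100 CPM in ZEB2 shRNA, 22600 and 18900 CPM in ZNF503 shRNA and 14000 and 14800 CPM in WT libraries, and 62 of the genes passed as lower in ZEB2 shRNA cells. At day 0 the sums were 20400 to 24800 CPM in all 6 libraries. These genes are close copies that may share reads, so the sum is firmer than any member. The cell cycle list turned in the same way, from 10 lower at day 2 to 16 higher at day 6.

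Chains of type IV collagen and laminin, the core of basement membranes, were 18, of which 12 passed as lower in ZEB2 shRNA cells and 1 as higher (median -1.26). COL4A1 stood at 3405 and 2728 CPM in ZNF503 shRNA, 250.1 and 273 CPM in ZEB2 shRNA and 128 and 280.2 CPM in WT libraries (-3.55 ± 0.28), and COL4A2 at 1569 and 1100.4 CPM, 133 and 138 CPM and 70.8 and 137 CPM (-3.30 ± 0.26). COL4A4 differed by -4.48 ± 0.27, LAMB1 by -2.61 ± 0.19 and LAMA1 by -1.50 ± 0.11. The family summed to 13700 and 11300 CPM in ZNF503 shRNA, 2860 and 2840 CPM in ZEB2 shRNA and 8334 and 8367 CPM in NKX2-5 shRNA libraries. At day 2 the sums were 1040 and 1010 CPM in ZNF503 shRNA and 1150 and 1250 CPM in ZEB2 shRNA libraries.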
